A study of Mus musculus with 2 samples.

Results

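The genes described here are 34 genes of DNA double-strand break and crosslink repair, read from the mRNA of mouse embryonic stem cells (mESCs). They were chosen by name, as the rows of the count table whose gene symbol was on a list of homologous recombination, Fanconi anaemia, end joining and checkpoint genes. All 34 were found among the 22556 genes of the table, and the rule used no measured value. The cells were iXist-ChrX-Dom mESCs, a female line from a cross of Dom/129S with Cast mice, in which the endogenous Xist promoter on the Dom/129S allele is exchanged for a TetOn promoter. They were untreated (0 h), so the promoter was not induced, and both libraries of the series belong to this 1 group. Initial expression, before Xist is switched on, was the purpose of the measurement, and the series holds no other condition to compare with. The line was grown on mitomycin C-inactivated fibroblast feeders, which were removed by pre-plating, and the labels give the cell type as mESC to NPC (neuronal precursor cell). Nothing states that the 2 replicates were separate cultures. A p-value between them sets the difference of these 2 libraries against counting error only, and that difference may be technical.

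A DNA double-strand break is repaired either by copying an intact sister chromatid (homologous recombination) or by rejoining the ends directly (non-homologous end joining). Breaks are sensed by the MRE11-RAD50-NBN complex and the kinase ATM, and single-stranded DNA at stalled forks by the kinase ATR, while the Fanconi anaemia proteins unhook crosslinks that bind both strands and hand the resulting break to BRCA1 and BRCA2. Embryonic stem cells divide quickly and spend much of the cycle copying DNA, and they are known for strong use of recombination.

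Replicate 1 held 23716499 counts in genes and replicate 2 held 20275749. A count of 0 at these depths allows a level of up to 0.126 and 0.148 CPM (counts per 1000000 counts in genes). Such limits, and all intervals given here, cover counting error only, because the reads carried no molecular identifiers that would tell molecules apart. Of 15 ES cell markers, 14 reached a mean of at least 10 span TPM (transcripts per 1000000, from the whole gene length with introns), and their summed levels were 9999 TPM and 7626 TPM in replicates 1 and 2. The replicates stood apart in some of these markers, with 1129 and 142 counts for Pou5f1, the pluripotency factor OCT4. By library totals 13 of the 15 markers passed the test described below as lower in replicate 2, as did 45.7% of all genes. That number depended on the scaling between libraries, as given below. Neural precursor markers were near 0, with Sox1 and Olig2 among those at 0 in both libraries and Nes alone, of 10, above 10 TPM. The same was true of feeder markers, of which 0 of 14 reached 10 TPM, with summed levels of 6.65 and 2.46 TPM and Lum at 0. Primitive endoderm markers summed to 10.5 and 10.1 TPM, and 0 of 8 reached 10 TPM. The NPC part of the label was therefore not seen in the listed neural markers, apart from Nes at 12.9 span TPM. The study used Nes and Vim as neuronal markers, and Vim was not in the list.

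The repair genes were expressed well above most genes. Their share of all counts was 0.464% in the library of replicate 1, with a 95% Wilson interval from 0.461 to 0.467%. The share was 0.470% for replicate 2, from 0.467 to 0.473%, so both libraries gave much the same share. Every member had at least 101 counts in total, the number of Xrcc3, and Atr had the most with 33212. The median member had 3460 counts, against 486 for all genes with at least 10 counts. With the deposited gene length, which spans introns, the median levels of the 2 libraries were 41.4 and 35.6 TPM, and the median of the means was 39.1 TPM against 1.35 TPM over all genes and 7.88 TPM over genes with at least 10 counts. A mean of at least 10 span TPM was reached by 29 of 34 members, where 29.6% of all genes reach it. In bulk RNA, fewer cells expressing a gene and less RNA per cell cannot be told apart.

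Gene length decided much of the order within the list. The authors counted fragments over whole transcript spans, so the same counts can be divided by the span or by the exons alone, and the table does not say which fragments lay in introns. The study's methods describe the intronic share of these libraries as very small, and this could not be measured from the table. On the exonic scale the median member stood at 68.6 and 61.2 TPM in replicates 1 and 2, 65.9 TPM on average, where all genes had 1.86 TPM. At least 10 exonic TPM was reached by 32 of 34 members (34.2% of all genes with an exonic length) and at least 100 exonic TPM by 11 (10.2%). Over the 34 members, which share both libraries and all counts, Spearman's rho between the 2 scales was 0.61. Xrcc4, a short mRNA spread over 240696 bases, ranked 5 by exonic TPM and 32 by span TPM. Fancf, a gene without introns of 1692 bases, ranked 30 by exonic TPM and 6 by span TPM, and Lig4 moved likewise from 29 to 8. Between the replicates the exonic order was nearly the same (rho of 0.985), yet the replicate ranges of neighbouring genes in it did not overlap in only 5 of 33 pairs: Xrcc5 above Chek1, Chek2 above Brca1, Brip1 above Rad52, Fancf above Fancc and Fancg above Xrcc3. The ranges of all other neighbours overlapped, although some of these kept their order within each library. Below, levels are exonic TPM unless the span scale is named.

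**Figure D1:**
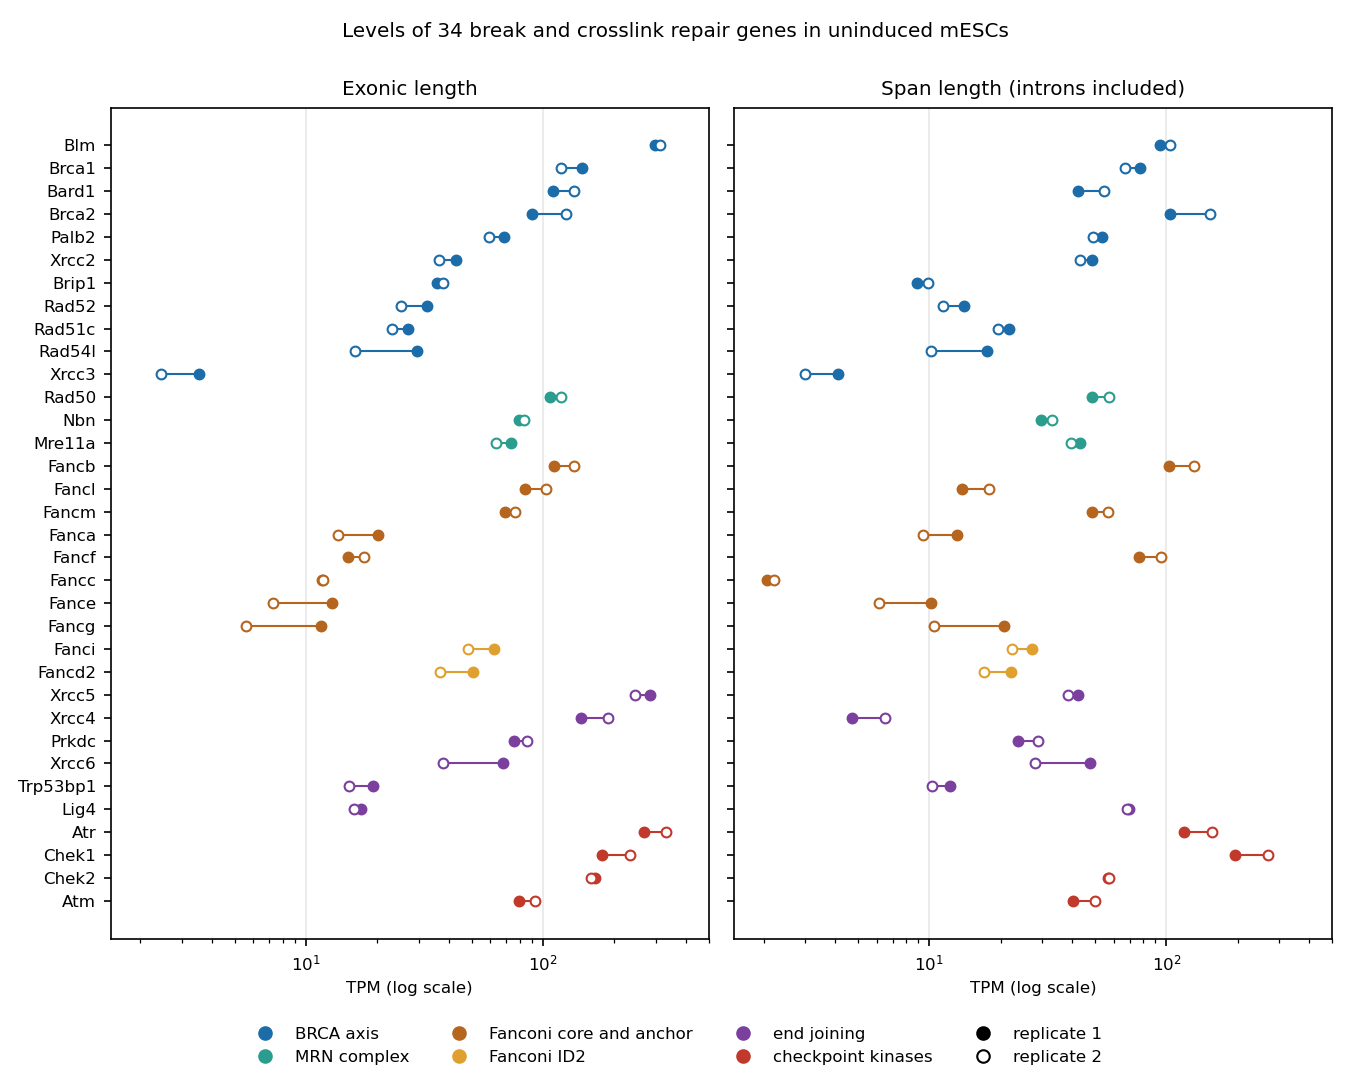
TPM (log scale) of each of the 34 repair genes with exonic length (left) and span length (right), coloured by role, with replicate 1 as filled and replicate 2 as open circles. On the exonic scale Blm and Atr are at the top near 300 TPM and Xrcc3 is at the bottom near 3 TPM, while Xrcc4, Fancf and Lig4 change place between the panels.

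The BRCA genes and the other genes of strand exchange ran from the highest to the lowest mean exonic level of the whole list. Their median was 39.6 exonic TPM over 11 genes (45.9 span TPM). Blm, the helicase that dissolves crossed recombination intermediates, had the highest mean of all 34 members, with 297 and 310 TPM (304 ± 9.32, SD, n = 2), although Atr was higher in replicate 2. By library totals its counts did not pass as different, with a log2 ratio of CPM, replicate 2 over replicate 1, of −0.03 and an adjusted p of 0.267 in the exact binomial test of the 2 counts, but with TMM factors, another scaling between libraries, the ratio was 0.20 (adjusted p = 7.6e-22, exact binomial). Xrcc3, which acts in recombination, was lowest, with 65 and 36 counts, which is 3.53 and 2.44 TPM (2.98 ± 0.778). Rad51c, whose protein pairs with XRCC3, stood at 27.0 and 23.0 TPM, so that Rad51c exceeded Xrcc3 by 7.64-fold in replicate 1 and 9.44-fold in replicate 2. Xrcc2, of a related complex, had 42.9 and 36.2 TPM.

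Brca1 and Bard1, whose proteins pair into the ubiquitin ligase that opens recombination, lay close together. Brca1 had 7288 and 4759 counts, or 146 and 119 TPM (132 ± 19.4). Bard1 had 4747 and 4644 counts, or 110 and 134 TPM (122 ± 16.9). Brca1 was thus the higher in replicate 1 and the lower in replicate 2, with exonic ratios of 1.32 and 0.882, so the exonic order of the partners differed between the libraries. By span TPM Brca1 was the higher in both, by 1.83 and 1.22 times. Brca2, which starts strand exchange at the resected end, had 89.5 and 125 TPM (107 ± 25.2). Palb2, the bridge between BRCA1 and BRCA2, had 68.2 and 59.2 TPM (63.7 ± 6.42), below Brca2 in both libraries. The helicase gene Brip1 had 35.7 and 37.8 TPM. Rad52, an annealing protein, had 32.5 and 25.2 TPM. Rad54l, a motor protein of strand exchange, had 694 and 306 counts, 29.4 and 16.1 TPM (22.8 ± 9.39). It had the largest difference between the libraries among these 11 genes, a log2 ratio of −0.95.

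Several of these genes begin back to back with a neighbour on the opposite strand, and others carry a match to the E2F consensus, the sequence bound by the E2F factors of the cell cycle, near their start. For Brca1 and Palb2 the bases between the 2 starts are shown because both genes of a pair lie on either side of them. For Bard1 and Brca2 the windows around the E2F match are shown. Sequences are RefSeq's for GRCm38.p6 (the assembly of mm10) and read 5′ to 3′ on the strand of the repair gene, with capitals marking an E2F match or a CCAAT box on either strand.
Nbr1/Brca1, chr11:101551956-101552105, minus strand: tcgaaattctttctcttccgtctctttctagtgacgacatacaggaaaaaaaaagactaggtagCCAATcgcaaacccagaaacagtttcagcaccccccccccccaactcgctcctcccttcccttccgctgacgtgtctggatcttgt
Dctn5/Palb2, chr7:122132947-122133039, minus strand: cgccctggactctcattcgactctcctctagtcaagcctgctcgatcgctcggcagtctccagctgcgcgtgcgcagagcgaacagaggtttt
Bard1, chr1:71103149-71103206, minus strand: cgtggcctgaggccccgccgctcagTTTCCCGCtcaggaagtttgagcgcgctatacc
Brca2, chr5:150522428-150522485, plus strand: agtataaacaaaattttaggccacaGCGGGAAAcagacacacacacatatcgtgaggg
The stretch before Brca1 holds a CCAAT box and that before Palb2 holds neither word. The longer promoter window of Palb2, searched as described below, does hold a CCAAT box.

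The MRN complex, which holds broken ends together and starts their resection, was present at similar levels of its 3 mRNAs. Rad50, the tether, had 107 and 119 TPM (113 ± 8.59). Nbn, the adaptor that recruits ATM, had 79.1 and 83.0 TPM (81.1 ± 2.79). Mre11a, the nuclease, had 73.0 and 63.2 TPM (68.1 ± 6.88). Rad50 exceeded Mre11a in both libraries, by 1.47 and 1.88 times, and Nbn by 1.35 and 1.43 times. By span TPM Rad50 was again the highest (53.1 ± 6.05), but Mre11a (41.5 ± 2.61) then stood above Nbn (31.2 ± 2.27).

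The Fanconi anaemia core genes are set out here as a high and a low set by their exonic TPM. The core complex is the ubiquitin ligase that marks a crosslink, and the FANCM protein anchors it on DNA. Fancb had 112 and 135 TPM (123 ± 16.6). Fancl, which encodes the ligase subunit itself, had 83.6 and 103 TPM (93.1 ± 13.5). Fancm, the anchor, had 68.9 and 76.1 TPM (72.5 ± 5.12). The other 5 genes lay at 20.1 TPM or less in each library. The sets were drawn from these same levels, so the gap between them is a description and not a test. Fanca had 20.1 and 13.7 TPM. Fancf, an adaptor, had 193 and 182 counts and 16.3 ± 1.84 TPM. Fancc had 11.6 and 11.8 TPM, which made it the steadiest of the low set. The low set ended with Fance at 12.8 and 7.28 TPM and Fancg at 11.6 and 5.56 TPM (8.58 ± 4.27), both with fewer counts in replicate 2. Fancb exceeded Fancg, a subunit of the same core complex, by 9.63 times in replicate 1 and 24.3 times in replicate 2. On the span scale this split was blurred, since Fancf then rose to 86.0 ± 12.9 TPM and Fancl dropped to 15.8 ± 2.88 TPM, and the median of the 8 genes was 15.7 span TPM and 16.6 exonic TPM.

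Fancb is the X-linked member of the list, at chrX:164980591-164997272 on the plus strand (mm10), and so lies on the chromosome that the study silences with Xist. It had 2530 and 2462 counts. Among 532 X-linked genes with at least 1 span TPM it ranked 116, at 116 ± 20.1 span TPM where the median X-linked gene had 25.7, and the highest of 3 equal groups of these genes started at 62.3 span TPM. On the exonic scale it ranked 139 of 530, again inside the highest group, which started at 82.8 TPM. The bases between Fancb and its opposite-strand neighbour Mospd2 are shown, with the window around the E2F match of Fancg, the lowest of the core genes.
Mospd2/Fancb, chrX:164980376-164980590, plus strand: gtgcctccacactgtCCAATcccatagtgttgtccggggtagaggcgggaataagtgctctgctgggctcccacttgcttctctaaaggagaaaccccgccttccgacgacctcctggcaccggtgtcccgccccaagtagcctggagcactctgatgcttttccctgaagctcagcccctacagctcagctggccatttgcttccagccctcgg
Fancg, chr4:43010321-43010378, minus strand: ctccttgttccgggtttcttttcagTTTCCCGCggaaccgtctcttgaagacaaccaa
Here too capitals mark the CCAAT box and the E2F match, and the Mospd2 side is on the left.

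Fancd2 and Fanci, whose proteins form the ID2 clamp that the core complex ubiquitinates, had a similar ratio in both libraries, as did some other pairs of members. Fancd2 had 50.6 and 36.8 TPM (43.7 ± 9.79). Fanci had 61.8 and 48.3 TPM (55.1 ± 9.59). The ratio of Fancd2 to Fanci was 0.819 in replicate 1 and 0.762 in replicate 2, and on the span scale 0.815 and 0.759. Both were lower in replicate 2, with log2 ratios of −0.55 and −0.45.

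In end joining, the 2 subunits of the KU ring that caps a broken end were measured at unequal levels by exonic length. Xrcc5, encoding KU80, had 5488 and 3794 counts, 283 and 243 TPM (263 ± 28.0). Xrcc6, encoding KU70, had 1675 and 751 counts, 67.7 and 37.8 TPM (52.7 ± 21.2). Xrcc5 was 4.18 and 6.44 times Xrcc6. On the span scale the ratios were 0.888 and 1.37, so the inequality rests on exonic length, and Xrcc5 spans 87534 bases with 2555 exonic ones while Xrcc6 spans 23717 with 3258. Prkdc, the DNA-dependent kinase bound by KU, had 75.1 and 85.7 TPM (80.4 ± 7.54).

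The ligation pair showed the same dependence on length more strongly. Xrcc4, the scaffold of ligase IV, had 144 and 187 TPM (166 ± 30.4), and by span length 5.60 ± 1.24 TPM. Lig4, the ligase, had 17.0 and 15.9 TPM (16.4 ± 0.802), and by span length 68.9 ± 0.729 TPM. The ratio of Xrcc4 to Lig4 was therefore 8.49 and 11.8 on the exonic scale and 0.0681 and 0.0947 on the span scale, so the order of the pair turned with the length used. Trp53bp1, which protects ends from resection, had 19.1 and 15.1 TPM (17.1 ± 2.80). Xrcc4 starts 57 bases from Tmem167 on the other strand, and this short stretch holds neither an E2F match nor a CCAAT box.
Tmem167/Xrcc4, chr13:90089609-90089665, minus strand: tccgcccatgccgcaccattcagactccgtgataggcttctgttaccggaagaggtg

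The checkpoint kinases had the highest median of the 6 role groups on both scales, 184 exonic TPM and 97.3 span TPM. Atr, the kinase for stalled forks, had 16591 and 16621 counts, the most of any member, and 266 and 332 TPM (299 ± 46.3). Atm, the kinase for breaks, had 78.8 and 92.1 TPM (85.4 ± 9.36), and Atr exceeded it by 3.38 and 3.60 times. Atr also stood 8.40 and 12.2 times above Atrip, the gene of its obligate partner, which had 31.7 and 27.1 TPM, and by span TPM 4.10 and 5.97 times above it. Chek1, the kinase that ATR activates, had 178 and 233 TPM (205 ± 38.9). Chek2, the kinase that ATM activates, had 166 and 159 TPM (162 ± 4.89). The ratio of Chek1 to Chek2 was 1.07 and 1.47 by exonic length and 3.44 and 4.71 by span length, so Chek1 was the higher throughout, and by span TPM it was the highest of all members (232 ± 52.7). The 238 bases between Chek2 and its neighbour Hscb are shown because they hold an E2F match and a pair of CCAAT boxes, in capitals.
Hscb/Chek2, chr5:110839778-110840015, plus strand: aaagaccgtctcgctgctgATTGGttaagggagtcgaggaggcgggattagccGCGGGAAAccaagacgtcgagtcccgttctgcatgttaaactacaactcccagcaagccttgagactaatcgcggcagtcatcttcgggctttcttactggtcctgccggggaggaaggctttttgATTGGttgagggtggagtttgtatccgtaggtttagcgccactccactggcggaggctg

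The wider pathway was counted from a list of 89 other genes found in the table. Of these, 65 had at least 10 span TPM and 68 had at least 10 exonic TPM. By group, at least 10 span TPM was reached by 25 of 34 recombination genes, 8 of 14 crosslink repair genes, 14 of 22 end joining genes and 18 of 19 checkpoint genes. Sfr1, an accessory factor of recombination, had the highest mean, with 1007 and 1177 TPM. Tipin, which stabilises forks and helps activate CHK1, had 1019 and 911 TPM, above Sfr1 in replicate 1. Rif1, which acts with 53BP1 at ends and also times replication, had 816 and 1016 TPM, 42.7 and 67.1 times its partner gene Trp53bp1. Usp1, which removes ubiquitin from FANCD2, was among the 3 highest by span TPM (752 ± 116), but 22.8% of the 50-base words of its transcript also occur in pseudogenes, so its counts are uncertain. At the low end, Dntt, the polymerase that lymphocytes use to diversify receptor joints, had 1 and 2 counts, and Mus81, a structure-specific nuclease, had 6 and 3. Eme2, whose protein pairs with MUS81, had 13 and 1 counts, so fewer than 20 counts stand behind each of the lowest 3 by exonic TPM. The exonic length used for Eme2, 5258 bases, exceeds its counted span of 2937, so its exonic TPM and its place there are uncertain. By span TPM the lowest 3 were Dntt, Nhej1, an end joining factor with 79 and 41 counts, and Mus81. Beside Blm, the genes of its partners were far lower by exonic length: Top3a, the topoisomerase of the same complex, had 11.8 and 9.71 TPM, and Rmi1 27.4 and 36.5 TPM, although 37.7% of the words of Rmi1 occur in pseudogenes and by span TPM the ratio of Blm to Rmi1 was only 1.01 and 0.793.

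Set beside lists of other DNA metabolism genes, the 34 members lay between them. The median was 65.9 exonic TPM for the members, 32.7 for the 89 other pathway genes, 102 for 42 genes of replication origins and forks and 37.8 for 34 genes of excision and mismatch repair. By span TPM the order was the same, with 39.1, 21.9, 73.1 and 19.7, except that excision and mismatch repair then came last. No test was made between lists.

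**Figure D2:**
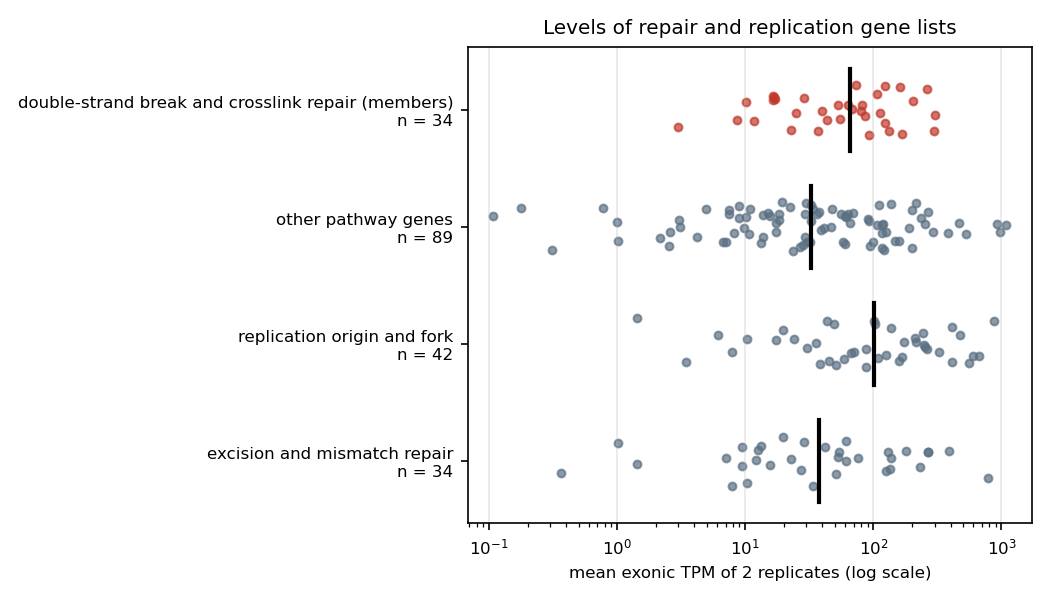
Mean exonic TPM over the 2 replicates (log scale) of every gene in the list of 34 members and in 3 comparison lists; each circle is a gene and the bar is the median. The members have no gene below 2.98 TPM, while the other pathway genes run from 0.108 to 1092 TPM.

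Of the 34 members, 11 begin head to head with another gene of the table, meaning opposite strands, no overlap and 5′ ends at most 1000 bases apart. This is 32.4% of the members, where 9.40% of all genes, 13.0% of genes with at least 10 counts and 15.6% of genes with at least 10 exonic TPM have such a neighbour. The gap was shortest for Fancd2 and Emc3, with 42 bases, and longest for Prkdc and Mcm4, with 464 bases. Mcm4 and Npat are themselves genes of the S phase, a helicase subunit of replication and an activator of histone genes. The others were Nbr1 for Brca1, Dctn5 for Palb2, Tex14 for Rad51c, Zfyve21 for Xrcc3, Mospd2 for Fancb, Desi1 for Xrcc6, Tmem167 for Xrcc4 and Hscb for Chek2.

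The levels of the 2 genes of a pair were alike in some pairs and far apart in others. The neighbour was higher than the member in 6 of 11 pairs by mean exonic TPM, and the ratio of neighbour to member ran from 0.286 to 16.5 in replicate 1 and from 0.141 to 6.51 in replicate 2. Brca1 and Nbr1, an autophagy receptor, were nearly level by exonic length, with 132 ± 19.4 and 136 ± 6.29 TPM, but by span TPM Nbr1 was the higher, with 125 against 72.2. By exonic length Fancd2 and Emc3 were also alike, at 43.7 ± 9.79 and 43.2 ± 12.6 TPM. Other pairs also moved with the length used: by span TPM Fancb and Mospd2 were level (116 and 115), Tex14 lay below Rad51c (8.02 and 20.6), and Tmem167 stood far above Xrcc4 (252 and 5.60). At the exonic extremes Chek2 stood far above Hscb (47.3 and 22.4 TPM) and Xrcc3 far below Zfyve21 (58.2 and 15.8 TPM). Atm and Npat had 85.4 ± 9.36 and 176 ± 29.8 TPM, and Prkdc and Mcm4 80.4 ± 7.54 and 255 ± 23.6 TPM. All 11 pairs had the same sign of log2 ratio between the libraries when scaled by library totals, for example −0.55 and −0.69 for Fancd2 and Emc3 and 0.29 and 0.38 for Xrcc4 and Tmem167. With TMM factors, which add 0.22 to every ratio, 9 of the 11 pairs share a sign: Chek2 then has 0.075 beside −0.94 for Hscb, and Brca1 −0.16 beside 0.041 for Nbr1. How many of all other head-to-head pairs share a sign was not counted, so no excess over other genes can be read from these counts. The part that base composition, depth or the shared start has in this was not tested.

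**Figure D3:**
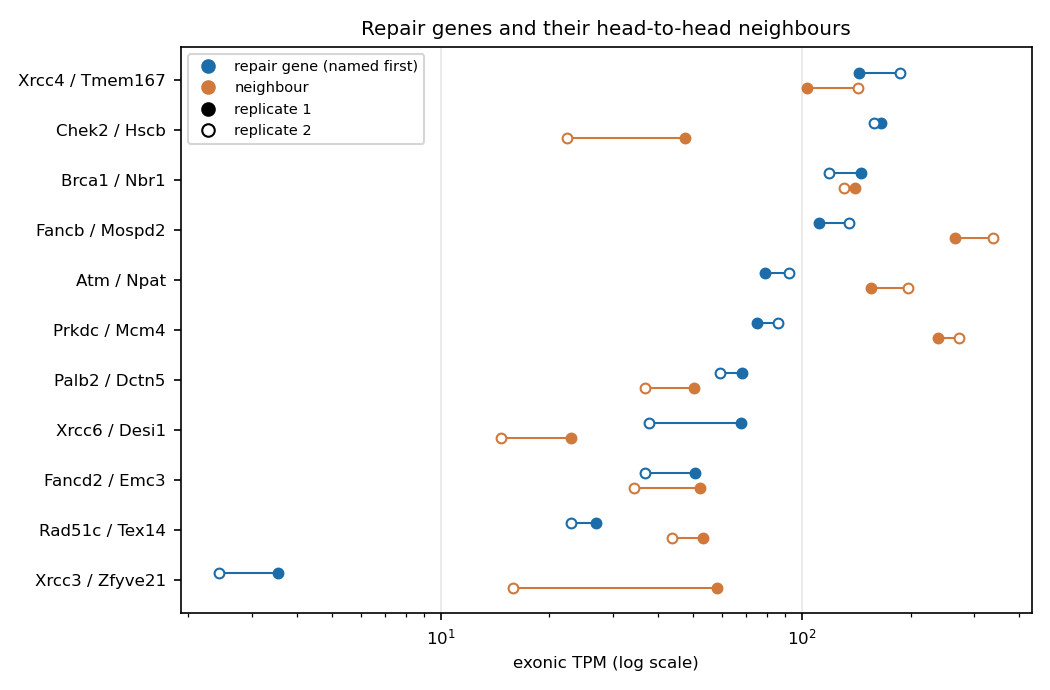
Exonic TPM (log scale) of 11 repair genes (blue, named first) and their head-to-head neighbours (orange) in replicate 1 (filled) and replicate 2 (open). Brca1 with Nbr1 and Fancd2 with Emc3 lie together, while Zfyve21 lies above Xrcc3 by 16.5 times in replicate 1 and 6.51 times in replicate 2.

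Promoter sequences, from 250 bases before to 50 bases after the start, were found for 29 members. An E2F consensus match, TTTCCCGC, TTTCGCGC, TTTGCCGC or TTTGGCGC on either strand, was present for 6 of them: Bard1, Brca2, Rad51c, Fancg, Xrcc6 and Chek2. The same letters occur in 2.27% of all 32841 promoters and in 4.51% of the 10837 genes with at least 10 counts. A CCAAT box, searched as CCAAT on both strands, was present for 17 members, where 37.4% of all promoters and 43.0% of those of counted genes hold it. The CHR element, TTTGAA on either strand, was found for Bard1 alone, where 17.9% and 14.4% hold it. The levels of the 6 genes with an E2F match ran from 8.58 (Fancg) to 162 exonic TPM (Chek2). These are matches of letters, not measured binding.

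The only comparison that the series allows is between its 2 libraries, and each gene's counts were tested against the library totals with a two-sided exact binomial test, adjusted by Benjamini-Hochberg over 14536 genes. The test compares these libraries and not conditions, and it holds no measure of the spread between replicate libraries. The libraries differed at an adjusted p below 0.05 for 26 of 34 members, where 60.8% of all genes tested did. The share rises with depth: among genes with at least 100 counts, as all members have, it was 71.8%, and among those with at least 1000 counts it was 77.4%, against 23 of 28 members. In replicate 2, 9 members were higher (15.1% of all genes) and 17 lower (45.7%). The median log2 ratio was −0.15 for the 33 members with at least 50 counts in each library and −0.17 for all such genes, so as a list the members moved about as the rest did. The ES cell markers differed between the libraries as well, with summed levels of 9999 and 7626 span TPM. By library totals 13 of 15 were lower in replicate 2 and 1 was higher. With TMM factors 9 were lower (30.7% of all genes) and 3 higher (27.0%). Against the GC trend described below, 7 were lower (21.8%) and 4 higher (23.7%). The part of these markers in the differences of the members was not tested.

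Direction depended on the scaling for many of them. TMM factors shift every gene by 0.22 on the log2 scale and DESeq2 size factors by 0.31. With TMM factors 25 members passed (57.8% of all genes), 15 of them higher (27.0%) and 10 lower (30.7%), and with DESeq2 size factors 17 were higher (31.6%) and 8 lower (26.1%). Against a trend of the ratio with GC content fitted on all other genes, 11 were higher (23.7%) and 12 lower (21.8%). Under all 4 of these scalings 7 members were higher in replicate 2 (11% of all genes, 1581 of 14396): Bard1, Brca2, Prkdc, Xrcc4, Atm, Atr and Chek1. Likewise 6 were lower under all 4 (16.3%): Brca1, Rad54l, Fancg, Fancd2, Fanci and Xrcc6. The remaining 21 members changed call or direction with the scaling or passed under none.

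By library totals, Fancg had the largest fall, from 244 to 94 counts (log2 ratio −1.15, exact 95% interval −1.51 to −0.80, adjusted p = 3.6e-11, exact binomial). Rad54l fell from 694 to 306 counts (log2 ratio −0.95, exact interval −1.15 to −0.76). Xrcc6 fell from 1675 to 751 counts (−0.93, −1.06 to −0.81), in contrast to its partner Xrcc5 (−0.31, −0.37 to −0.25), with intervals that did not overlap. Against the GC trend the log2 ratios of the pair were closer, −0.30 for Xrcc6 and −0.17 for Xrcc5. Brca1 moved by −0.39 (−0.44 to −0.34) and Bard1 by 0.19 (0.14 to 0.25), again without overlap. The largest rise was that of Brca2, from 7284 to 8187 counts (log2 ratio 0.39, exact 95% interval 0.35 to 0.44, adjusted p = 2.2e-63, exact binomial). Chek1 rose by 0.30 (0.25 to 0.36) and Atr by 0.23 (0.20 to 0.26) on the same scale. A difference between 2 genes of 1 library pair does not depend on the scaling of totals, though it can follow their base composition.

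**Figure D4:**
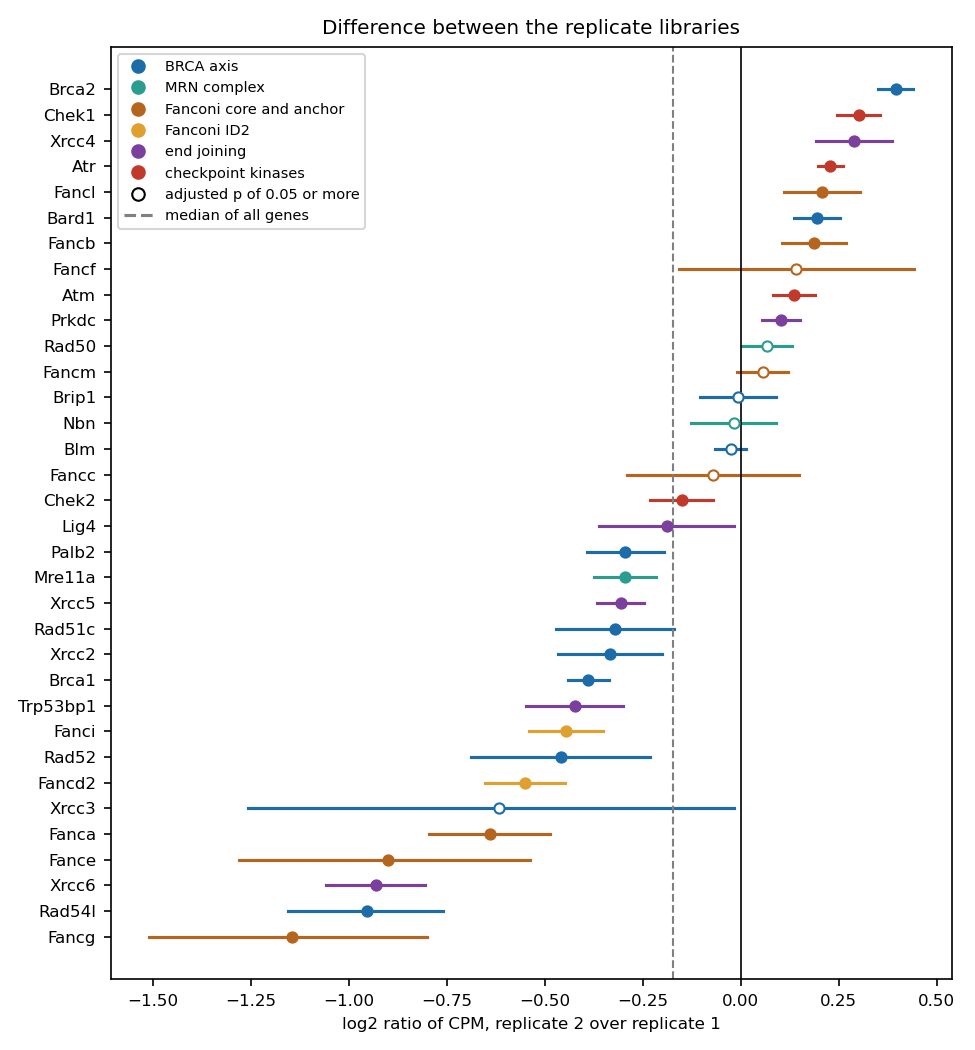
Log2 ratio of CPM, replicate 2 over replicate 1, for each repair gene with its exact 95% interval (counting error only), ordered by ratio and coloured by role; open circles have an adjusted p of 0.05 or more and the dashed line is the median of all genes at −0.17. Fancg, Rad54l and Xrcc6 are lowest and Brca2, Chek1 and Xrcc4 highest.

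The ratio between libraries followed GC content, among the members as among other genes. Over the 34 members, Spearman's rho of the log2 ratio with the GC content of the longest transcript was −0.75, and over 9660 other genes −0.65 (across genes, which share both libraries and are not independent). Member GC ran from 40.8% for Atr to 61.4% for Fance, with a median of 45.8% against 47.7% for the other genes. Of 15 members over 46% GC, 12 passed as lower in replicate 2 and 0 as higher, where 58.9% and 4.28% of all genes over this GC content did. Of 19 members up to 46% GC, 9 passed as higher and 5 as lower, where 38.5% and 18.2% of all such genes did. Removing the trend narrowed the spread of the 34 ratios from an SD of 0.40 to 0.30, and 23 members passed against it (45.5% of all genes). Of the 26 that passed by library totals, 18 were among these 23, and Brip1, Rad50, Fancc, Fancf and Fancm passed only against the trend.

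Individual genes shifted by different amounts when the trend was removed. Rad54l, with 47.2% GC, kept a log2 ratio of −0.70 (adjusted p = 2.2e-12, exact binomial against the trend), the largest fall of any member. Fancg stayed lower at −0.56 and Fancd2 at −0.37. Fanca, of 54.4% GC, went from −0.64 to 0.05 and no longer passed. Fancf, of 56.9% GC, had 193 and 182 counts and went the other way, from 0.14 (adjusted p = 0.432) to 0.90 (adjusted p = 1.5e-08, exact binomial against the trend). Fancc moved likewise from −0.07 to 0.53. After the trend was removed, Bard1 (0.35) and Brca2 (0.31) had the highest ratios among members with over 1000 counts.

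**Figure D5:**
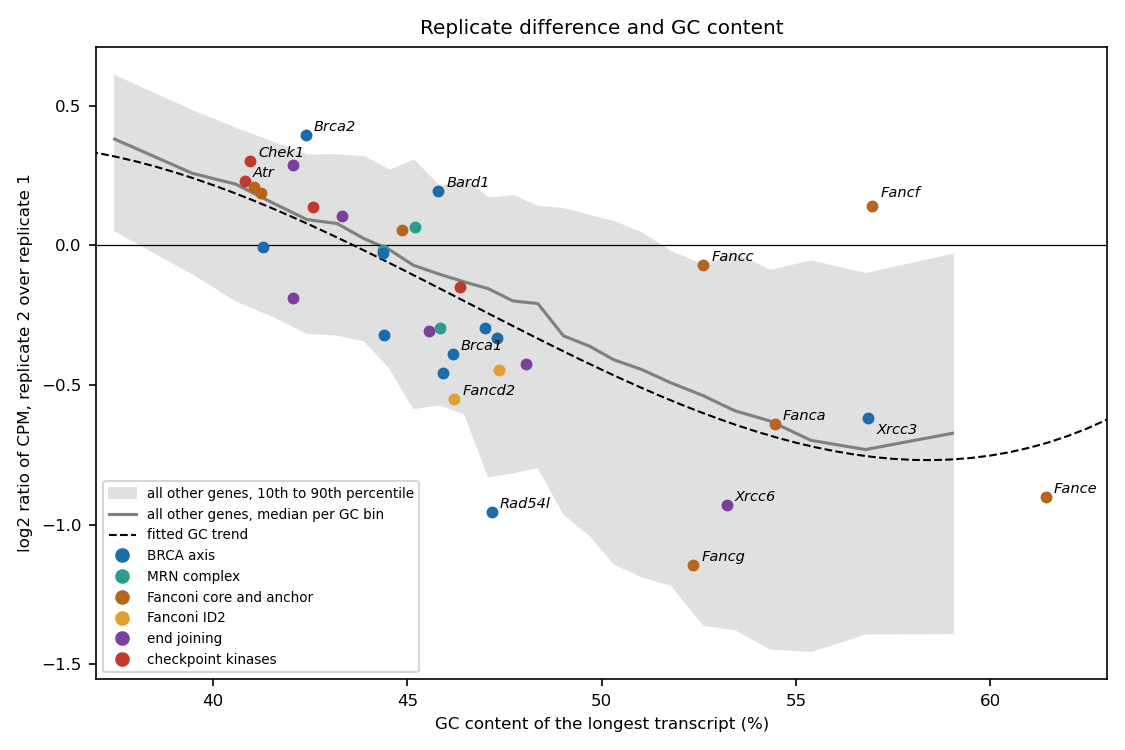
Log2 ratio of CPM, replicate 2 over replicate 1, against GC content of the longest transcript (%), for 34 repair genes coloured by role; the grey band and line give the 10th to 90th percentile and median of all other genes per GC bin and the dashed line is the fitted trend. The members run down along the band, with Fancf and Brca2 above its upper edge, Fancc and Bard1 near that edge and Rad54l below it.

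In the wider pathway the libraries differed for 71 of 87 tested genes, 16 higher and 55 lower in replicate 2, where the shares over all genes are 15.1% and 45.7%. By group and by library totals, 7 recombination genes were higher and 20 lower of 33 tested. The numbers were 2 and 7 of 14 crosslink repair genes, 3 and 15 of 21 end joining genes, and 4 and 13 of 19 checkpoint genes. The largest falls were in genes with few counts: Stra13, a histone-fold partner of FANCM, had 34 and 3 counts, Recql4, a helicase, 57 and 6, and Eme2 13 and 1. Among the tested genes Brcc3, an X-linked subunit of the BRCA1-A complex, had the largest rise, from 6037 to 7003 counts (log2 ratio 0.44). It was followed by Rmi1 (0.33) and Etaa1 (0.25), an activator of ATR. Trp53, the gene of the effector p53, had 729 and 359 counts, 51.4 and 31.5 TPM, and a log2 ratio of −0.79 that was −0.16 after the GC trend. With TMM factors 27 of these genes were higher and 35 lower, beside 27.0% and 30.7% of all genes. Against the GC trend 19 were higher and 27 lower, beside 23.7% and 21.8%. By group these were 8 and 8 for recombination, 4 and 2 for crosslink repair, 2 and 8 for end joining, and 5 and 9 for checkpoint genes.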

How the data were processed

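Messenger RNA was sequenced from 2 replicates of uninduced iXist-ChrX-Dom mESCs, grouped and numbered as in the labels. The labels name a poly(A) mRNA isolation kit and a stranded library kit. The authors deposited counts per gene. Per the file headers, featureCounts 1.5.2 had assigned fragments to whole transcript spans of mm10 in reverse-stranded mode, so intronic fragments were counted. The submitters' processing notes also name STAR 2.4.2a and Bowtie2 2.3.2, without saying which was used for these libraries. The 2 count columns were matched to the samples by name, although the sample descriptions carry a letter that the column names lack. The deposited length column of each gene equalled the union of its transcript spans.

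TPM was computed from the deposited counts with that length (span TPM) and with the union of exons of the GENCODE M21 basic annotation (exonic TPM, matched for 98.1% of genes). The counts are the same in both. Replicates were averaged. Log2 ratios used CPM after adding 0.5 counts. The exact binomial test covered genes with at least 10 counts in total. The GC trend was a polynomial of degree 3 in the GC content of the longest transcript, fitted on the genes outside the list that had 50 or more counts in both libraries. TMM factors came from edgeR 4.0.16 and size factors from DESeq2 1.42.0, in R 4.3.3, and the remaining steps ran in Python 3.11.15. With 1 group there is no model of conditions. The biological coefficient of variation between the 2 libraries was 0.279 over 12648 genes in edgeR. The binomial test does not use it, so its p-values and intervals leave this spread out. The scripts were tested on simulated data.

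The members and lists were chosen with earlier results of these data known. All 34 members are named. Other pathway genes are named where among the 3 highest or 3 lowest by TPM, the 3 largest replicate differences in each direction, or head to head with a member. Top3a, Rmi1, Atrip and Trp53 were added after their values were seen, as were the motifs, the pairs of genes set side by side and the sequences shown. No member shared 50-base words with pseudogenes beyond 0.924% or overlapped a gene on the same strand. Of the pathway list, Faap24, Faap100, Faap20 and Paxx were not analysed here, the last because the symbol AF529169, first listed for it, lies at the position of another gene, Minar1, and was taken out. Some listed genes are counted but not reported by name here. Promoter sequences of Fancd2, Prkdc, Nbn, Rad50 and Xrcc2 were not used here.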

Additional observations from a re-analysis of the deposited data

How the results depend on the processing

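No paired analysis was possible because there is only 1 group. Alternatives were the gene length, the scaling between libraries, the filters, the pseudocount and the replicates left out. The median level of the members was 39.1 span TPM, 65.9 with exonic length and 78.7 CPM with no length, and 35.6 to 41.4 span TPM with a replicate left out. The number with at least 10 TPM was 29, 28 to 30 with a replicate left out, and 12 reached 50 TPM. Scaling moved the direction most. Members higher in replicate 2 numbered 9 by library totals, 15 with TMM factors and 17 with DESeq2 size factors, and members lower 17, 10 and 8. The median log2 ratio of −0.15 became 0.075 with TMM, 0.16 with DESeq2 and 0.025 against the GC trend. Other pathway genes past the test fell from 71 to 46 against the GC trend, as the share of all genes fell from 60.8% to 45.5%. With TMM factors the ratio turned positive for Brip1 (0.22), Blm (0.20), Nbn (0.21), Fancc (0.16), Lig4 (0.037) and Chek2 (0.075). With DESeq2 size factors it did so for Palb2 (0.017), Brip1 (0.31), Blm (0.29), Mre11a (0.017), Nbn (0.29), Fancc (0.24), Xrcc5 (0.0056), Lig4 (0.12) and Chek2 (0.16). Against the GC trend it did so for Xrcc3 (0.14), Blm (0.025), Nbn (0.034), Fanca (0.047), Fancc (0.53) and Chek2 (0.042). The shift of all genes by 0.22 and 0.31 is the construction of the TMM and DESeq2 alternatives, while the cause of the GC trend was not tested. Leaving out a replicate leaves no library to test against, so the binomial test has no such value. In groups of 2 no library can be singled out as an outlier. Xrcc3, with 101 counts, is the member that depth limits most.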
